A study of Homo sapiens with 15 samples.

Results

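The comparison described here is that of CARD14 knockout (KO) cells with wild-type (WT) cells, both given vehicle. Its members are the 6 libraries of these groups, 3 of each, out of 15 in the series, and the 14971 of 28518 gene symbols that passed a filter on low counts. All cells were HaCaT, a human keratinocyte line that became immortal spontaneously, and gene editing with CRISPR had made the KO cells. WT cells were not edited at CARD14. The other 3 groups, each with 3 libraries, were WT cells with 10 µM mepazine, an inhibitor of MALT1, for 24 h, and cells with the R820W allele of CARD14 with vehicle or with mepazine. No KO library was treated with mepazine. The labels give neither the number of edited lines behind each genotype nor the stretch of CARD14 that was edited, so an effect of the knockout and a difference of the edited line cannot be told apart. The libraries of a group are lettered a, b and c, and nothing says that they came from separate cultures, so the p-values measure only the spread between these libraries, which may be technical.

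CARD14 is a scaffold protein of keratinocytes. Once active, it gathers the adaptor BCL10 and the protease MALT1 into a complex that recruits ubiquitin ligases, switches on NF-kB and stress kinases, and lets MALT1 cleave inhibitors of these pathways. Gain-of-function alleles of CARD14 are known in psoriasis and related skin disease, and the title of the series names the transcription factor MYC as regulated by CARD14.

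The 6 libraries held 21450115 to 26974363 counts each. Levels are given as CPM (counts scaled to a common library size), and 3 counts corresponded to 0.111 to 0.140 CPM. Differences are log2 fold changes, KO minus WT, ± SE from edgeR's quasi-likelihood test over all 15 libraries, and a gene is said to have risen or fallen where its Benjamini-Hochberg adjusted p over the 14971 genes was under 0.05. All 18 keratinocyte markers were tested, none was called, and their summed level was 8323 to 9410 CPM in the 6 libraries. At an unadjusted p under 0.05, 2 of them (LAMB3 and KRT17) were higher and 3 (DSG3, DSP and DSC3) lower. These are 11.1% and 16.7% of the markers, against 4.36% and 3.27% of all genes. DSG3 had the smallest p among them (−0.20 ± 0.05, adjusted p = 0.122). Of the fibroblast markers, THY1 and DPT had 0 counts in these libraries, COL1A2, COL3A1 and PDGFRA stayed under 0.05 CPM, and the sum of all 12 (26.7 to 30.2 CPM) was mostly FBLN1. Summed melanocyte, leukocyte and endothelial markers reached at most 14.7, 6.86 and 6.81 CPM, mostly from MITF, CD68 and CDH5. TYR, DCT, CD3E and MS4A1 had 0 counts, and no marker of these types was called. The RNA is from bulk cultures, in which fewer cells of a type and less RNA per cell cannot be told apart.

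The edited gene was examined first. CARD14 stood at 1.67, 1.13 and 1.76 CPM in WT a, b and c and at 1.80, 2.01 and 1.53 CPM in KO a, b and c. The groups overlapped, with a difference of 0.21 ± 0.21 (95% interval −0.22 to 0.65, adjusted p = 0.886). The level of CARD14 RNA therefore did not separate KO from WT, and a frameshifted transcript can keep its level, so it checks neither the edit nor the labels. The partners were measured more tightly. BCL10 differed by −0.01 (95% interval −0.11 to 0.10) and MALT1 by 0.00 (−0.11 to 0.11). Of 18 tested genes for the CARD14 complex, its CARD-family relatives and its ubiquitin partners, none was called, and the median difference was 0.02 against 0.00 over all genes.

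MYC held its level. It was at 201, 193 and 197 CPM in WT and at 194, 200 and 193 CPM in KO, with a difference of −0.01 and a 95% interval of −0.09 to 0.07. Among 59 tested MYC targets and nucleolar ribosome biogenesis genes, none was called and the median was 0.03. Of these, TCOF1, a nucleolar factor of ribosomal RNA transcription, had the smallest unadjusted p at 0.17 ± 0.04 (adjusted p = 0.0688), and ODC1, the first enzyme of polyamine synthesis, differed by 0.17 ± 0.04 (adjusted p = 0.137). None of the 29 tested NF-kB subunits and target genes was called. Their median was 0.11, with 5 higher and 0 lower at an unadjusted p under 0.05, where 4.36% of all genes were higher and 3.27% lower. NFKBIA, the feedback inhibitor of NF-kB, differed by 0.13 ± 0.05 (adjusted p = 0.510), and IL1B, which encodes an inflammatory cytokine, by 0.17 ± 0.06 (adjusted p = 0.496). Of the 8 tested genes for MALT1 substrates none was called. RC3H1, the RNA-binding protein Roquin-1, differed by −0.18 ± 0.06 and CYLD, a deubiquitinase, by 0.14 ± 0.06 (adjusted p = 0.410 and 0.576). Cleavage of a MALT1 substrate acts on the protein and is not measured here.

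Across all genes, 43 rose (0.287% of those tested) and 13 fell (0.0868%) in KO. The genes that rose included 8 of the extracellular matrix and the TGF-beta response, 4 targets of YAP-TEAD, 3 of the matrix protease and plasminogen system and 3 stimulated by interferon. Those that fell included 5 genes of the amino acid stress response and the fatty acid desaturase SCD. In all 56 genes the 3 KO values lay wholly above or wholly below the 3 WT values. The genes were picked by their p on these same libraries, and the share of all tested genes that separated so is not given here. Such separation, here or for the single genes below, therefore describes the values and adds no support to a call. Most differences were small. Only 14 reached 2-fold, 13 of them higher in KO, and 33 were under 1.5-fold. At an unadjusted p under 0.05 there were 1141 genes, where 749 would be expected if no gene had changed. The precision allowed small limits for most genes: the 95% interval lay within 0.5 log2 units either side of 0 for 11176 genes (74.7%), and for 9248 of the 9320 genes (99.2%) with a mean of at least 10 CPM. The call held in each of 6 fits that left out 1 library for 22 of the 56 genes, 20 that rose and 2 that fell. For SLC22A3, TGFBI, CNTN1 and PHGR1 it was lost in all 6, and PSMD3, a proteasome subunit at 0.19 ± 0.04 (adjusted p = 0.0534), lay just outside the threshold, beside TGFBI just inside it (0.18 ± 0.04, adjusted p = 0.0479).

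**Figure D1:**
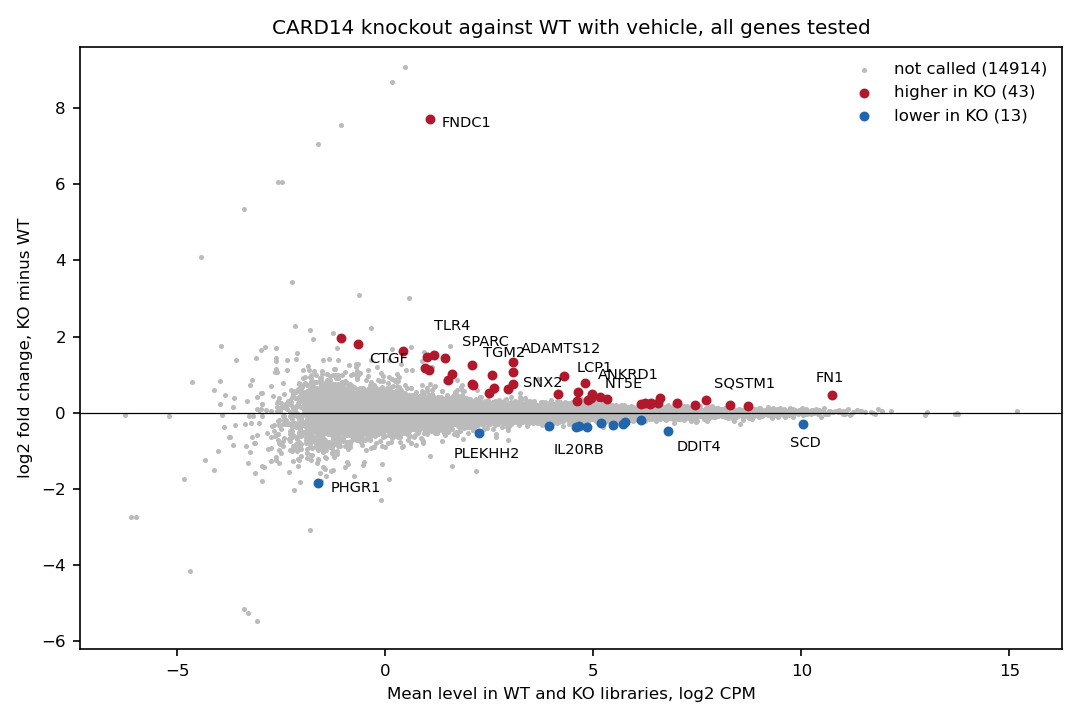
Each point is a gene, with its mean level in the 6 libraries (log2 CPM, x axis) and its log2 fold change KO minus WT (y axis); red and blue points had an adjusted p under 0.05, and 1 tested gene with 0 counts in both groups is not drawn. The 43 genes that rose spread from 0.18 to 7.72 on the log2 scale, FNDC1 stands alone at the top among the called genes, and those that fell lie close below 0 apart from PHGR1.

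FNDC1 had the largest log2 fold change among the called genes. This gene, which encodes a secreted protein with fibronectin type III domains, was at 0.0387, 0 and 0 CPM in WT and at 4.63, 3.40 and 4.47 CPM in KO. It was all but undetected in WT and present in every KO library. The WT libraries held 1 count in all and the KO libraries 304, a ratio of 285 per total count with an exact conditional 95% interval of 50.7 to 11283, which covers counting error only. The remaining 9 libraries of the series held 0 counts. FNDC1 thus passed the low-count filter through the KO libraries alone, so its call (adjusted p = 7.91e-09) adds nothing to these counts.

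ADAMTS12, a secreted metalloprotease that cleaves matrix proteins, was at 4.88, 5.13 and 4.19 CPM in WT and 11.9, 11.8 and 12.4 CPM in KO. The KO libraries lay close together at 2.53 times the WT level (1.34 ± 0.12, adjusted p = 4.97e-08). LCP1, the actin-bundling protein L-plastin, had the smallest adjusted p of all genes. It rose from 13.1, 13.9 and 13.3 CPM to 27.9, 24.96 and 25.4 CPM (0.96 ± 0.07, adjusted p = 3.06e-09). Both groups of LCP1 values were narrow and far apart. SNX2, a sorting nexin that works with the retromer on endosomes, was at 5.69, 5.60 and 4.90 CPM in WT and 11.1, 11.2 and 11.6 CPM in KO (1.06 ± 0.14, adjusted p = 7.41e-05). The calls of ADAMTS12, LCP1 and SNX2 held whichever of the 6 libraries was left out.

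**Figure D2:**
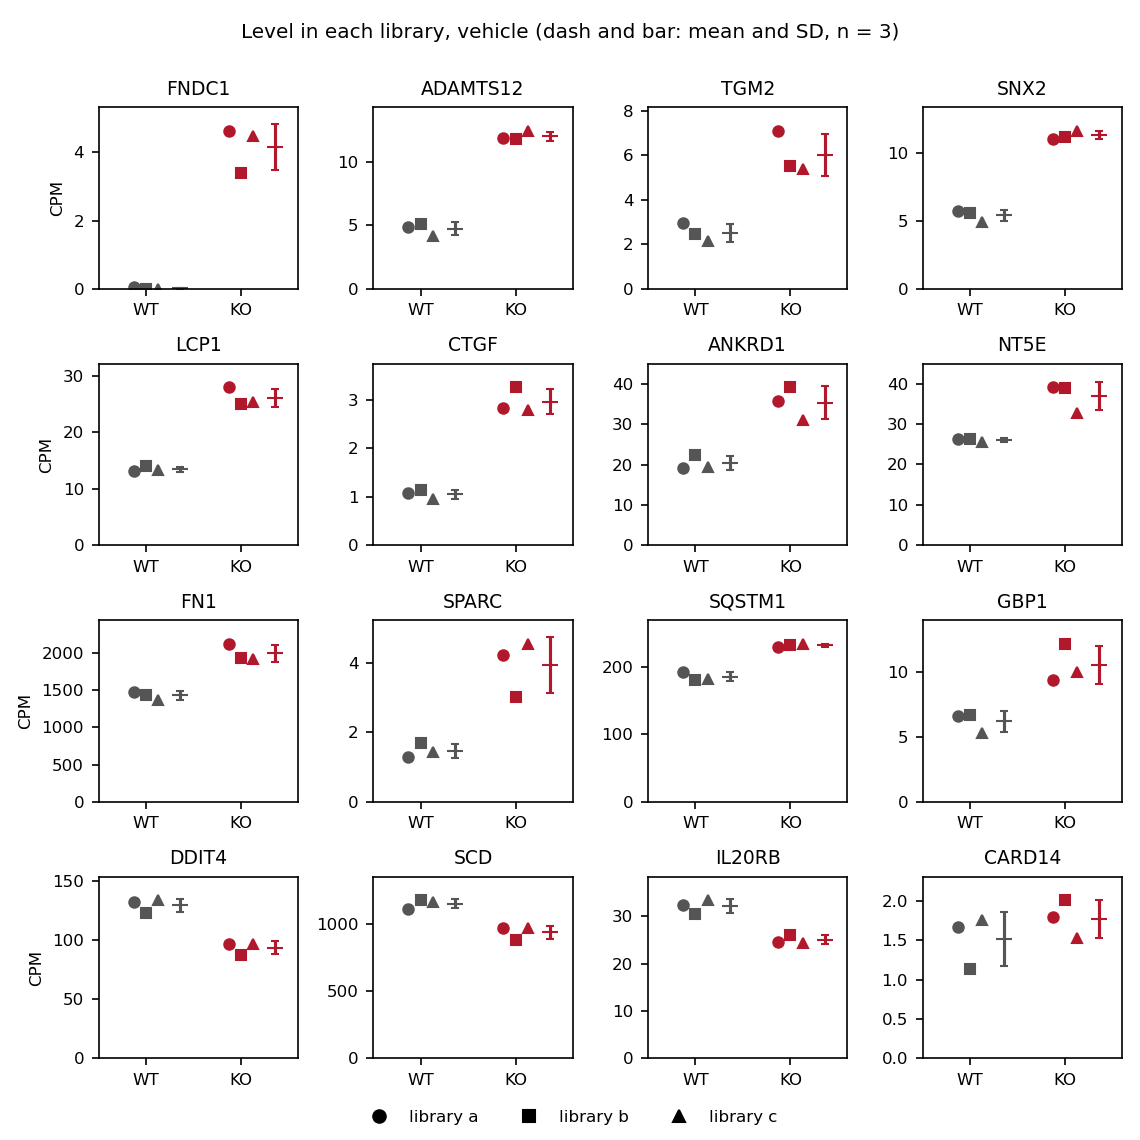
Level in CPM (y axis) of 16 genes in each WT and KO library with vehicle; circles, squares and triangles are libraries a, b and c, and the dash and bar give the mean and SD of 3 libraries. The groups do not overlap for the 15 genes that rose or fell, and they overlap for CARD14.

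Matrix genes and genes that respond to TGF-beta formed the fullest group among those that rose. TGF-beta is a secreted factor that induces matrix, its crosslinking enzymes and actin regulators in epithelial cells. Of 37 tested members of this list, 8 rose and 0 fell, and at an unadjusted p under 0.05 there were 12 higher and 0 lower. The list's median was only 0.06, and 0.03 without KO a. FN1, which encodes fibronectin, was the most abundant of the genes that rose. It was at 1482, 1441 and 1364 CPM in WT and at 2122, 1936 and 1924 CPM in KO. Every KO library exceeded every WT library, with a difference of 0.48 ± 0.05 (adjusted p = 3.72e-06).

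TGM2, a transglutaminase that crosslinks matrix proteins, rose from 2.94, 2.45 and 2.14 CPM to 7.10, 5.55 and 5.39 CPM (1.25 ± 0.15, adjusted p = 3.56e-05). SPARC, a collagen-binding matrix protein, rose from 1.28, 1.69 and 1.43 CPM to 4.23, 3.01 and 4.55 CPM (1.44 ± 0.23, adjusted p = 0.00276), with KO b the lowest of the KO libraries. TNC, which encodes the matrix protein tenascin-C, rose by 0.49 ± 0.07 from 14.8 ± 1.0 to 20.9 ± 1.1 CPM (SD, n = 3; edgeR, adjusted p = 0.000429). Actin-binding proteins were in the same list: CALD1 (caldesmon) rose by 0.54 ± 0.07 and TPM1 (a tropomyosin) by 0.24 ± 0.05 (adjusted p = 3.56e-05 and 0.0225). TGFBI, a secreted collagen-binding protein, rose by 0.18 ± 0.04. The calls of FN1, TGM2, SPARC, TNC and CALD1 held without any 1 library. TPM1 lost its call without KO a, KO b, WT a or WT c (0.20 to 0.28 over the 6 fits), and TGFBI without any of the 6 (0.15 to 0.20). Of the fibroblast collagen markers, COL1A1 had means of 1.70 CPM in WT and 1.87 CPM in KO (0.15 ± 0.22, adjusted p = 0.927), and COL1A2, COL3A1 and COL6A3 were near or under the level of 3 counts.

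Targets of YAP-TEAD were the next group. YAP is a coactivator that enters the nucleus when cells spread or lose contact, and it binds DNA through TEAD factors, whose core site reads GGAATG. Of 24 tested targets, 4 rose and 0 fell, with a list median of 0.07. The promoters of CTGF and ANKRD1 are shown because both genes rose and both windows hold more than 1 copy of that core. They run from 250 bases before to 50 bases after the start site, on the minus strand, at chr6:131951323-131951622 and chr10:90921038-90921337 of GRCh38.p14 (RefSeq), with the core in capitals.
CTGF: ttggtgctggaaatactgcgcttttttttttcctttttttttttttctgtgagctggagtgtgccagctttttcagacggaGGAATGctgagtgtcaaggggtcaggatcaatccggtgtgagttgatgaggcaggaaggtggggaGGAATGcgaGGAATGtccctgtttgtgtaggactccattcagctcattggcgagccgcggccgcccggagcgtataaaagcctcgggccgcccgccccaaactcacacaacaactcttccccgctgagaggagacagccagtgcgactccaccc
ANKRD1: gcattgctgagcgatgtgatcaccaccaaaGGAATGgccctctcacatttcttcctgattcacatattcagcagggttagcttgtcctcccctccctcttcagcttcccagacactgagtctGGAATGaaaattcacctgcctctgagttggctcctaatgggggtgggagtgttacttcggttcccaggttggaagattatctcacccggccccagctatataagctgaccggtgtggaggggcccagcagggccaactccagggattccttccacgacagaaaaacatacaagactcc

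The CTGF window held 3 copies, beginning 169, 104 and 95 bases upstream of the start site, and the ANKRD1 window 2, at 220 and 128 bases. Read on either strand, GGAATG occurred in 14.05% of 27305 promoters of this length and in 10.8% of those of tested genes. Of the called genes with a promoter in the table, it occurred in 8 of 34 that rose and in 2 of 11 that fell. Besides CTGF and ANKRD1, the windows of ADAMTS12, CALD1, SPARC, ARSI, PDE1C and IFIT3 held it. The motif was chosen after it was known which genes moved, and a match is a string of letters and not evidence of binding. No promoter of CYR61 was matched.

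CTGF, now named CCN2, encodes a secreted matricellular protein and is among the classic YAP targets. It was at 1.08, 1.13 and 0.952 CPM in WT and at 2.83, 3.25 and 2.79 CPM in KO. All KO values were more than double the highest WT value, though at a low level (1.48 ± 0.23, adjusted p = 0.000647). ANKRD1, a nuclear ankyrin-repeat protein, rose from 19.3, 22.5 and 19.5 CPM to 35.8, 39.2 and 31.0 CPM (0.79 ± 0.09, adjusted p = 6.41e-05). NT5E, the surface enzyme CD73 that makes adenosine from AMP, rose from 26.3, 26.3 and 25.6 CPM to 39.1, 38.9 and 32.8 CPM (0.50 ± 0.07, adjusted p = 0.000396). CYR61, now CCN1, the close relative of CTGF, rose by 0.26 ± 0.05 from 76.3 ± 3.8 to 91.5 ± 7.1 CPM (SD, n = 3; edgeR, adjusted p = 0.0157). In all 4 genes KO c was the lowest of the KO libraries. The calls of CTGF, ANKRD1 and NT5E held without any 1 library, and that of CYR61 was lost without KO a, KO b, WT a or WT c (0.23 to 0.33).

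Of 23 tested matrix proteases and plasminogen-system genes, 3 rose and 0 fell, with 9 higher and 0 lower at an unadjusted p under 0.05 and a median of 0.10. Beside ADAMTS12, already given, PLAU rose. It encodes urokinase, which activates plasminogen, and stood at 115, 113 and 126 CPM in WT and 144, 139 and 142 CPM in KO (0.26 ± 0.05, adjusted p = 0.00552). The groups were separate, but the call was lost without KO a, WT a or WT b (0.24 to 0.31). SERPINE2, an inhibitor of serine proteases, went from 2.69 ± 0.30 to 4.50 ± 0.62 CPM (0.74 ± 0.17, SD with n = 3; edgeR, adjusted p = 0.0556), just outside the threshold. None of 14 tested integrin genes, receptors for such matrix, was called. ITGB5 had the smallest unadjusted p among them (0.14 ± 0.04, adjusted p = 0.223).

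One gene of 32 tested for ERK output and AP-1 rose, and 0 fell. This was FOSL1, a FOS-family subunit of AP-1, at 166, 160 and 156 CPM in WT and at 196, 182 and 180 CPM in KO (0.21 ± 0.04, adjusted p = 0.0168). The KO values were all higher by a small margin, and the call was lost without KO a, WT b or WT c (0.17 to 0.24). At an unadjusted p under 0.05, 10 members were higher and 0 lower, and the median was 0.09. JUN, a partner of FOSL1 in AP-1, differed by 0.28 ± 0.07 (adjusted p = 0.121), AREG, a ligand of the EGF receptor, by 0.29 ± 0.08 (adjusted p = 0.134), and IER3, an immediate early gene, by 0.17 ± 0.05 (adjusted p = 0.223).

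Interferon-stimulated genes are antiviral genes switched on by interferons through STAT and IRF factors. Elements of the form TTTCNNTTTC are bound by IRF factors. Of 44 tested, 3 rose and 0 fell, with 12 higher and 1 lower at an unadjusted p under 0.05 and a median of 0.13. The promoters of the 2 genes that rose and hold the element are shown with it in capitals, at chr10:89327747-89328046 on the plus strand and chr1:89065159-89065458 on the minus strand of GRCh38.p14 (RefSeq).
IFIT3: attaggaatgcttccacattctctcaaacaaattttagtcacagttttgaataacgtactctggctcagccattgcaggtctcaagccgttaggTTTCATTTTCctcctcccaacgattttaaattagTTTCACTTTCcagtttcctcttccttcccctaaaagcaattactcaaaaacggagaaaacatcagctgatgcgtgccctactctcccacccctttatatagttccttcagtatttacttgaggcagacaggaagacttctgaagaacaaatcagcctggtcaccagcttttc
GBP1: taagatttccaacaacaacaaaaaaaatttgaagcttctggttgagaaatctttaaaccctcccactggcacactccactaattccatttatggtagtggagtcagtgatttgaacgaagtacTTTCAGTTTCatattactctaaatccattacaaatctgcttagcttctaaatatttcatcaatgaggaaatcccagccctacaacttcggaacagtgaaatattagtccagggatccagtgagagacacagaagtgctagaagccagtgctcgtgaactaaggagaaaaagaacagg

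IFIT3 held 2 copies, beginning 156 and 122 bases upstream of the start site, and GBP1 held 1, at 127 bases. On either strand the element occurred in 3.65% of all promoters, in 2.88% of those of tested genes, and in 2 of 34 and 0 of 11 of the called genes that rose and fell. GBP1, an interferon-induced GTPase, was at 6.66, 6.68 and 5.28 CPM in WT and 9.42, 12.2 and 10.0 CPM in KO. KO b was the highest and no library overlapped (0.75 ± 0.11, adjusted p = 0.000311). IFIT3, which binds RNA sensors and partners IFIT1, rose by 0.23 ± 0.05 from 75.9 ± 3.9 to 89.2 ± 1.7 CPM (SD, n = 3; edgeR, adjusted p = 0.0152). RSAD2, the antiviral enzyme viperin, rose by 0.52 ± 0.11 from 4.63 ± 0.81 to 6.68 ± 0.27 CPM (SD, n = 3; edgeR, adjusted p = 0.0214). The call of GBP1 held without any 1 library. That of IFIT3 was lost without KO a, KO b, WT b or WT c (0.19 to 0.27) and that of RSAD2 without KO a, KO b, WT a or WT c (0.40 to 0.63). DDX58, the cytosolic RNA sensor RIG-I, differed by 0.25 ± 0.06 (adjusted p = 0.0570), just outside the threshold.

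Among 20 tested skin antimicrobial and acute-phase genes, 2 rose and 0 fell, and the median of 0.22 was the highest of the lists. TLR4, the receptor for bacterial lipopolysaccharide, rose from 1.12, 1.32 and 1.05 CPM to 3.43, 3.63 and 2.90 CPM (1.51 ± 0.24, adjusted p = 0.00177). The KO values were all more than double any WT value, and the call held without any 1 library. SAA1, an acute-phase protein, rose from 4.61, 5.32 and 4.47 CPM to 8.46, 7.03 and 7.03 CPM (0.65 ± 0.13, adjusted p = 0.0155). Its near-identical neighbour SAA2 differed by 0.40 ± 0.18 (adjusted p = 0.596), and counting may have split reads between them. SAA1 lost its call without KO a, WT a or WT c (0.55 to 0.73). RNASE7, an antimicrobial ribonuclease of skin, differed by 1.05 ± 0.27 at a low level (0.603 ± 0.14 against 1.25 ± 0.12 CPM in WT and KO, SD, n = 3; edgeR, adjusted p = 0.121).

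The amino acid stress response was the group with most genes that fell. Its transcription factor ATF4 is translated when amino acids are short or the endoplasmic reticulum is stressed, and it switches on amino acid transport and synthesis. Of 36 tested genes, 0 rose and 5 fell, 1 was higher and 21 lower at an unadjusted p under 0.05, and the median was −0.15, the lowest of the lists. DDIT4, an inhibitor of the mTORC1 kinase that hypoxia and glucocorticoids also induce, was at 132, 123 and 133 CPM in WT and at 96.8, 87.1 and 96.8 CPM in KO. The KO values were all below WT and fell by 27.6% (log2 fold change −0.47 ± 0.07, adjusted p = 0.00552). SESN2, which senses leucine and restrains mTORC1, went from 19.4, 16.9 and 15.4 CPM to 12.9, 13.96 and 13.7 CPM (−0.35 ± 0.08, adjusted p = 0.0257).

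The other members that fell act in amino acid transport and metabolism. SLC6A9, a glycine transporter, went from 51.1, 47.2 and 49.7 CPM to 39.1, 36.1 and 42.8 CPM (−0.32 ± 0.06, adjusted p = 0.0131). CBS, which makes cystathionine from homocysteine, went from 30.8, 26.7 and 27.5 CPM to 21.5, 23.3 and 22.5 CPM (−0.34 ± 0.07, adjusted p = 0.0161). PCK2, mitochondrial phosphoenolpyruvate carboxykinase, fell by 0.24 on the log2 scale from 58.4 ± 2.2 to 49.4 ± 1.6 CPM (SD, n = 3; edgeR, adjusted p = 0.0189). The values of WT and KO were separate in each of these genes by a margin that was small beside the level. The call of DDIT4 held without any 1 library. CBS lost its call without KO a, KO c or WT a (−0.38 to −0.28), SLC6A9 without KO a, KO b, WT a or WT c (−0.39 to −0.27), PCK2 without KO a, KO c, WT a or WT b (−0.27 to −0.22), and SESN2 in each fit but the one without WT c (−0.43 to −0.26). The list's median stayed between −0.17 and −0.13 over the fits without 1 library.

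Several well-known ATF4 targets were lower in KO without passing the threshold. CHAC1, which degrades glutathione, differed by −0.39 ± 0.10 (adjusted p = 0.138), PSAT1, an enzyme of serine synthesis, by −0.28 ± 0.08 (adjusted p = 0.247), and ASNS, asparagine synthetase, by −0.22 ± 0.08 (adjusted p = 0.496). ATF4 itself differed by −0.12 ± 0.04 (adjusted p = 0.478). JDP2, an AP-1 family repressor, was at −0.30 ± 0.07 (adjusted p = 0.0597). The one member higher at an unadjusted p under 0.05 was PPP1R15A, the phosphatase subunit GADD34 (0.21 ± 0.07, adjusted p = 0.316). Others barely differed, such as DDIT3 at 0.02 ± 0.12 and SHMT2 at −0.04 ± 0.04 (adjusted p = 0.99 and 0.889). At any p, 5 of the 36 tested members were higher in KO and 31 lower. All of these genes were chosen as examples after their values were seen. The 20 tested cytosolic aminoacyl-tRNA synthetase genes, many of them known ATF4 targets, had none called, with 1 higher and 7 lower at an unadjusted p under 0.05. AARS, for alanine, differed by −0.18 ± 0.04 and GARS, for glycine, by −0.17 ± 0.05 (adjusted p = 0.114 and 0.165). Motif letters of an ATF4 element, TGATGNAA, were found in 3.67% of all promoters and in 1.68% of those of tested genes. Of the called genes with a promoter, 1 of 34 that rose held them, and 1 of 11 that fell, IL20RB. None of the windows of the 5 genes of the list that fell held them. At such a share, 5 windows are too few for their absence to be a result.

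SCD, which inserts the double bond into saturated fatty acids, was the most abundant gene to fall. It was at 1111, 1175 and 1163 CPM in WT and at 967, 881 and 966 CPM in KO, so that the highest KO library lay below the lowest WT library (−0.29 ± 0.04, adjusted p = 0.000396). The call held without any 1 library. Of 17 tested genes of fatty acid synthesis and desaturation, SCD was the only one called, and the median was −0.08. FASN, fatty acid synthase, differed by −0.10 ± 0.06 and FADS1, another desaturase, by −0.14 ± 0.04 (adjusted p = 0.710 and 0.256). None of 24 tested cholesterol synthesis genes was called. Their median was −0.04, with INSIG1, a sterol-sensing brake on this pathway that both lists hold, at −0.20 ± 0.06 (adjusted p = 0.189).

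**Figure D3:**
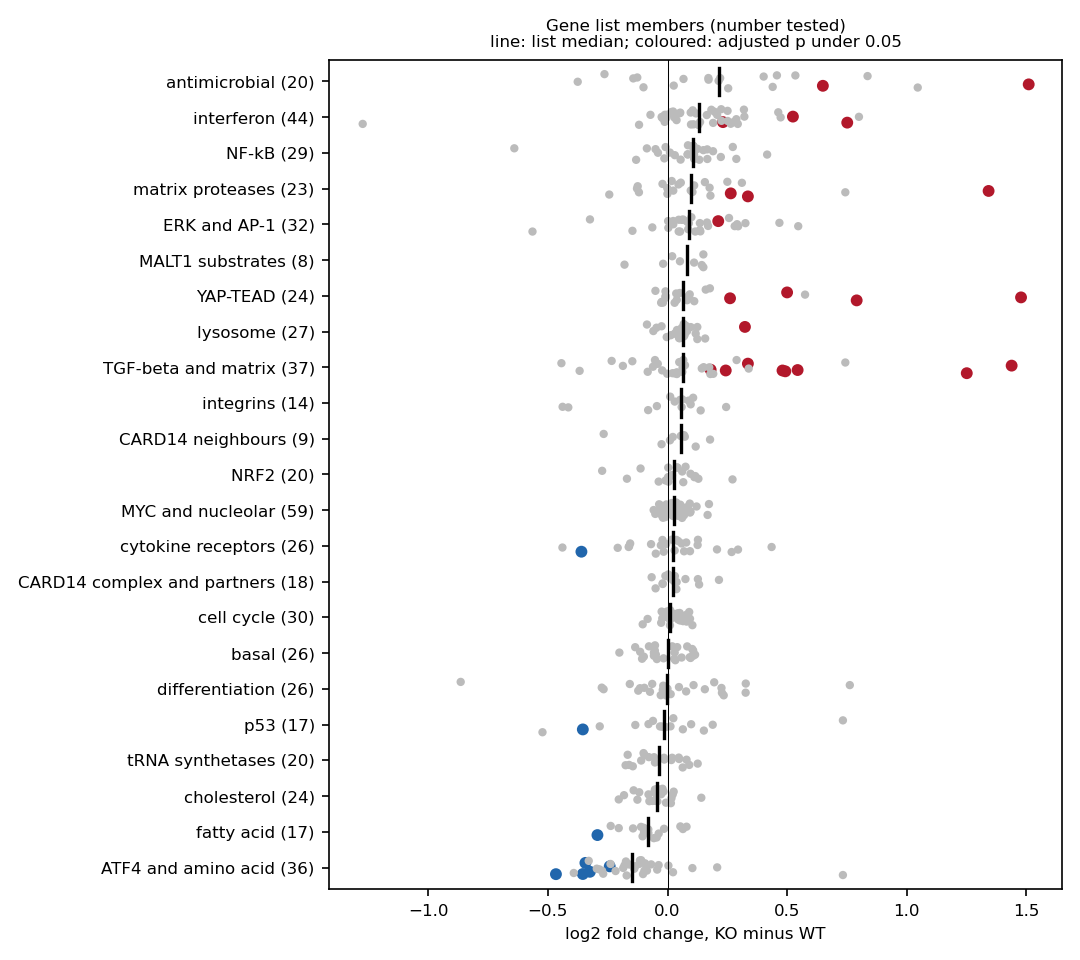
Log2 fold change KO minus WT (x axis) of each tested member of 23 gene lists (y axis, number tested in brackets); the vertical tick is the list's median, and red and blue points had an adjusted p under 0.05. List medians run from −0.15 for ATF4 and amino acid genes to 0.22 for antimicrobial genes, and coloured points are few in every list.

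Genes that define the state of a keratinocyte were close in both groups. Of 26 tested terminal differentiation genes none was called and the median was 0.00. FLG, which encodes filaggrin, differed by 0.23 ± 0.08 and KRT10, a keratin of suprabasal cells, by 0.19 ± 0.08 (adjusted p = 0.453 and 0.557). Of 26 tested basal keratinocyte and anchoring genes none was called and the median was 0.00. LAMB3, a chain of laminin-332, differed by 0.12 ± 0.04 (adjusted p = 0.513). Of 30 tested genes of S phase and mitosis none was called, the median was 0.01, and no member's 95% interval reached beyond −0.20 to 0.20.

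One of 26 tested receptors for skin inflammatory cytokines fell. This was IL20RB, a receptor subunit for interleukins 19, 20 and 24, at 32.5, 30.5 and 33.4 CPM in WT and at 24.7, 26.1 and 24.4 CPM in KO (−0.36 ± 0.06, adjusted p = 0.00475). The groups were well apart, and the call was lost only without KO a (−0.40 to −0.33 over the 6 fits). IL7R, the interleukin 7 receptor chain, differed by 0.27 ± 0.08 (adjusted p = 0.232). Of 27 tested lysosome and autophagy genes, SQSTM1 alone was called. It encodes p62, an autophagy receptor and signalling scaffold, and was at 193, 181 and 183 CPM in WT and 229, 233 and 234 CPM in KO. The KO libraries agreed closely (0.32 ± 0.04, adjusted p = 4.77e-05), and the call held without any 1 library. The 20 tested NRF2 target genes, among which SQSTM1 is often counted, had none called and a median of 0.03. Of 17 tested p53 targets SESN2, also in the ATF4 list, was the only one called, and the median was −0.01.

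In all, 28 of the 56 genes belonged to at least 1 of the 23 lists and 28 to none. Those outside the lists included several with large differences at low levels. MSRB3, a methionine sulfoxide reductase, was at 0.697, 0.565 and 0.714 CPM in WT and 1.88, 1.63 and 2.60 CPM in KO (1.62 ± 0.35, adjusted p = 0.0316). PDE1C, a phosphodiesterase activated by calmodulin, was at 1.20, 1.601 and 0.761 CPM in WT and 2.91, 2.82 and 2.33 CPM in KO (1.17 ± 0.26, adjusted p = 0.0379). Separation of the groups was clear in both genes, and the calls were nonetheless sensitive to single libraries. MSRB3 lost its call in every fit but the one without KO b (1.40 to 1.75), and PDE1C in every fit but the one without WT b (0.95 to 1.43).

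CPNE8, a copine that binds membranes in response to calcium, rose from 1.01, 1.65 and 1.28 CPM to 3.19, 2.39 and 2.90 CPM (1.12 ± 0.21, adjusted p = 0.00695). SLFN13, an endoribonuclease of the Schlafen family, rose from 2.13, 1.74 and 2.19 CPM to 4.23, 3.59 and 4.43 CPM (1.02 ± 0.17, adjusted p = 0.00219). TMEM200A, a membrane protein, rose from 3.64, 3.67 and 4.47 CPM to 8.18, 8.46 and 6.80 CPM (0.99 ± 0.19, adjusted p = 0.0110). The KO libraries lay above the WT libraries throughout, and SLFN13 kept its call without any 1 library. CPNE8 lost it without KO a or WT a (0.95 to 1.32) and TMEM200A without KO a, KO b, WT a or WT b (0.93 to 1.09). KLHL29, of the kelch-like family, and SLC22A3, an organic cation transporter, rose by 1.81 ± 0.35 and 1.97 ± 0.44 (adjusted p = 0.0110 and 0.0345) at under 1.3 CPM. The WT and KO libraries held 19 and 71 counts of KLHL29 and 13 and 55 counts of SLC22A3. Both genes reached the filter level of 0.425 CPM in every KO library and in no WT library. Like FNDC1, they passed the low-count filter only because of the KO libraries, so their calls add nothing to these counts. KLHL29 lost its call without KO a or WT b (1.51 to 2.03), and SLC22A3 in all 6 fits (1.68 to 2.33).

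PRKACB, a catalytic subunit of protein kinase A, rose by 0.87 ± 0.18, and AKAP12 and AKAP2, which anchor that kinase, by 0.76 ± 0.15 and 0.39 ± 0.06 (adjusted p = 0.0189, 0.0131 and 0.00243). SNX10, a sorting nexin of endosomes, rose by 0.62 ± 0.10, BASP1, a protein of the inner plasma membrane, by 0.41 ± 0.07, and GAB2, a docking adaptor of receptor tyrosine kinases, by 0.73 ± 0.16 (adjusted p = 0.00243, 0.00243 and 0.0345). Smaller rises were those of the arylsulfatase ARSI (0.39 ± 0.07), the noncoding RNA ESRG (0.35 ± 0.07), the unconventional myosin MYO1D (0.30 ± 0.06), the serine protease PRSS23 (0.26 ± 0.04), the focal adhesion protein TNS4 (0.26 ± 0.05) and the metallothionein MT2A (0.21 ± 0.05), with adjusted p from 0.00269 for PRSS23 to 0.0345 for MT2A. MT2A has near-identical relatives, and its count may hold their reads. The calls of AKAP2, SNX10, BASP1 and PRSS23 held without any 1 library. TNS4 lost its call without KO a or WT c (0.23 to 0.27), ARSI without KO a, WT b or WT c (0.35 to 0.45), ESRG without KO a, WT a or WT c (0.32 to 0.40), AKAP12 without KO a, KO c, WT b or WT c (0.67 to 0.90), and GAB2 and PRKACB in every fit but the one without KO c (0.56 to 0.83 and 0.76 to 0.96). MYO1D lost it in every fit but the one without WT a (0.25 to 0.33), and MT2A in every fit but the one without WT c (0.18 to 0.25).

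Of the genes that fell and stood outside the lists, PLEKHH2, a protein associated with actin, went from 5.15, 5.98 and 5.71 CPM to 3.47, 3.83 and 4.28 CPM (−0.53 ± 0.11, adjusted p = 0.0155). IKZF2, the zinc finger factor Helios, went from 25.1, 28.2 and 28.3 CPM to 21.6, 19.8 and 21.8 CPM (−0.36 ± 0.08, adjusted p = 0.0265). In both, the highest KO value lay under the lowest WT value. FAM107B fell by 0.29, PCMTD1 by 0.26 and CNTN1, a neural cell adhesion molecule, by 0.18 on the log2 scale (adjusted p = 0.0278, 0.0228 and 0.0471). PHGR1, at 0.518 ± 0.08 CPM in WT and 0.139 ± 0.02 CPM in KO (SD, n = 3), differed by −1.85 ± 0.41 (edgeR, adjusted p = 0.0345), and its KO level was near that of 3 counts. PLEKHH2 lost its call without KO a, KO b, WT b or WT c (−0.62 to −0.46), PCMTD1 without KO a, KO c, WT b or WT c (−0.30 to −0.23), IKZF2 in every fit but the one without WT a (−0.42 to −0.32), and FAM107B in every fit but the one without KO b (−0.38 to −0.21). CNTN1 and PHGR1 lost it in all 6 fits (−0.19 to −0.17 and −1.97 to −1.72).

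The R820W cells offer a second edited genotype, in which 19.2% of tested genes were called against WT with vehicle. That comparison shares its WT libraries with the one above, so values are only set side by side, and the difference between the edited genotypes was tested as KO minus R820W, where 26.5% of tested genes were called. Several genes that rose in KO stood lower in R820W than in WT. FN1 had a mean of 712 CPM in R820W, 1429 CPM in WT and 1994 CPM in KO (KO minus R820W 1.49 ± 0.05, adjusted p = 1.29e-17). ANKRD1 had means of 13.7, 20.4 and 35.3 CPM in the same order (1.36 ± 0.10, adjusted p = 5.45e-10), and NT5E means of 15.2, 26.1 and 36.9 CPM (1.28 ± 0.08, adjusted p = 6.52e-13). ADAMTS12 stood at 0.518 CPM in R820W against 4.73 CPM in WT and 12.01 CPM in KO (4.51 ± 0.16, adjusted p = 1.29e-17). TLR4 and PDE1C were at 0.0129 and 0.0145 CPM in R820W and SNX2 at 0.112 CPM, levels at or under that of 3 counts, where KO had 3.32, 2.69 and 11.3 CPM.

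Other genes differed from WT the same way in both edited genotypes. CALD1 had a mean of 90.2 CPM in R820W against 20.1 CPM in WT and 29.3 CPM in KO (KO minus R820W −1.62 ± 0.06, adjusted p = 1.29e-17), SAA1 18.6 CPM against 4.801 and 7.51 CPM (−1.30 ± 0.11, adjusted p = 6.62e-10), and IFIT3 130 CPM against 75.9 and 89.2 CPM (−0.55 ± 0.04, adjusted p = 2.80e-10). GBP1, AKAP2, SCD and DDIT4 did not pass the test of KO against R820W. For SCD, with a mean of 972 CPM in R820W, the difference was −0.05 ± 0.04 (adjusted p = 0.420), and for DDIT4, at 98.1 CPM, it was −0.07 ± 0.07 (adjusted p = 0.563). A p that misses the threshold does not show that these levels were equal. Of the amino acid stress genes that fell in KO, DDIT4 and CBS were also called lower in R820W than in WT (R820W minus WT −0.40 and −0.48). SLC6A9, PCK2 and SESN2 differed there by −0.13, −0.12 and −0.14 and were not called. Among list members not called in KO, ATF4 (−0.28), ASNS (−0.44) and CHAC1 (−0.60) were called lower in R820W than in WT, and JDP2 (0.36) higher. PLEKHH2 and IKZF2, which fell in KO, had higher means in R820W (14.1 and 43.7 CPM) than in WT (5.61 and 27.2 CPM). MYC was at 159 CPM in R820W and differed between the edited genotypes by 0.30 ± 0.04 (KO minus R820W, adjusted p = 1.14e-06). These genes were chosen on the KO libraries, which also enter the KO minus R820W test.

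**Figure D4:**
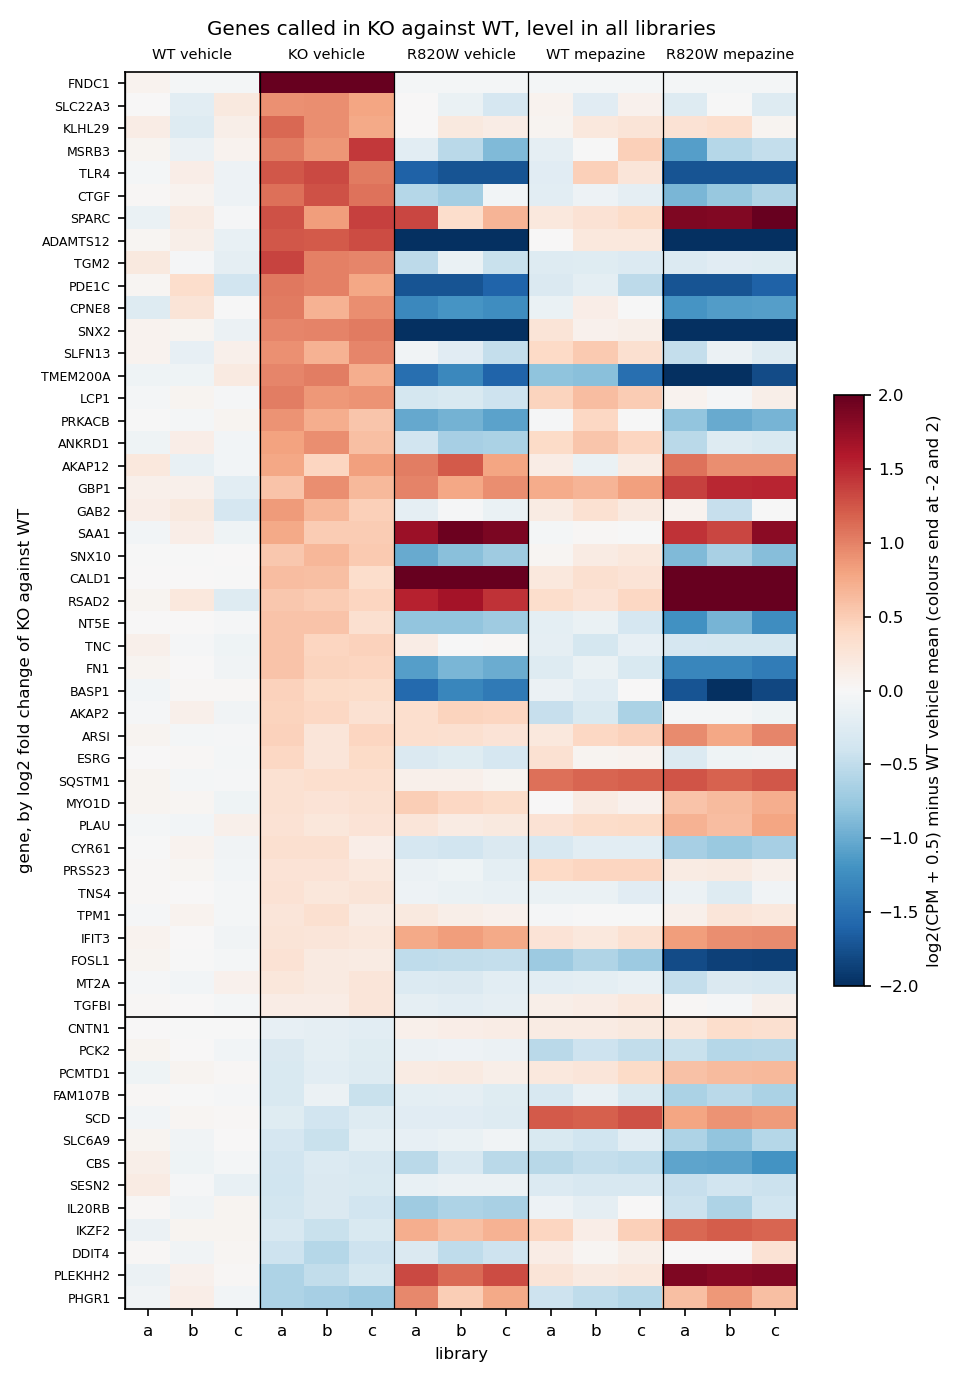
Of the 56 genes that rose or fell in KO, 55 are drawn (rows, ordered by log2 fold change, y axis) in all 15 libraries (columns, x axis), coloured by log2(CPM + 0.5) minus the WT vehicle mean, with the scale ending at −2 and 2. In the KO columns a, b and c share a direction in each row but not always its strength, as in SPARC, where b is lowest. In the R820W columns rows of either colour occur, such as ADAMTS12 and SNX2 lower and CALD1 and SAA1 higher than WT.

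Genome position was also examined. Chromosome medians of log2 fold change, over genes of at least 5 CPM, ran from −0.02 to 0.03. In windows of 25 neighbouring genes the median ran from −0.06 to 0.09 over 9588 windows, with gene order from RefSeq for 13538 matched genes. Such a median does not show a change that covers only a few neighbouring genes, and position as a cause of the calls was not tested. The 9 tested neighbours of CARD14 on its chromosome arm had none called and a median of 0.06. EIF4A3 and SGSH, with the smallest unadjusted p among them, differed by 0.07 ± 0.04 and 0.12 ± 0.07 (adjusted p = 0.746 and 0.753). RNF213 differed by 0.06 ± 0.06 (adjusted p = 0.891), and ENDOV by 0.18 ± 0.15 (adjusted p = 0.856).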

How the data were processed

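RNA was measured in 15 HaCaT libraries, grouped by their titles. The authors deposited raw counts per gene symbol, 1 column per library. Total RNA was the input to a strand-keeping kit (NEBNext Ultra II Directional), per the labels' protocols. FastQC, MACS2, DESeq2 and the hg19 build appear in the submitters' processing notes, with no role or version. The aligner, the counter, the annotation and whether strand was used in counting are not stated in the labels, so symbols that overlap, lie antisense or have near-identical copies may have shared reads. Of 28518 symbols, 5618 had 0 counts in every library.

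Genes were filtered with filterByExpr (minimum count 10, or 0.425 CPM at the median library), scaled by TMM, and fitted with edgeR 4.0.16 in R 4.3.3 (robust quasi-likelihood, group as the only term, two-sided, Benjamini-Hochberg adjustment over all genes). All 15 libraries share 1 estimate of the spread. Of the called genes, 52 reached the filter level in all 6 libraries, and 1 in all WT but not all KO libraries. The other 3 (FNDC1, KLHL29 and SLC22A3) reached it in all KO libraries but in no WT library. Pairs of libraries within KO or WT gave a chi-square of 3.37 to 7.81 per gene, more than sampling noise, and all were kept. Count floors and the interval of a count ratio reflect counting error alone.

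The comparison, the 23 gene lists and the motifs were chosen with earlier results of these data known, and support nothing by themselves. Genes named are CARD14, BCL10, MALT1 and MYC, every called gene, marker genes, and, in lists with fewer than 4 called, some of the 4 members with the smallest unadjusted p; exceptions are marked, and 1 called gene is counted but not reported here by name. Library values are given for the 12 highest and 8 lowest called genes with at least 2 CPM, and for others a result turns on. Promoter sequences are from RefSeq on GRCh38.p14, matched for 45 of the 56 called genes by symbol or older symbol, and no coordinates were converted. Alternatives were a replicate block, DESeq2 1.42.0, voom of limma 3.58.1, DESeq2 size factors, 2 other filters, a fit of the 6 libraries alone, and leaving out each of the 6 in turn.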

Additional observations from a re-analysis of the deposited data

How the results depend on the processing

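The 56 calls were compared with those under 7 other settings. DESeq2 called 63 genes (50 shared with the main result), limma-voom 52 (49 shared), DESeq2 size factors in edgeR 56 (55 shared), no filter 83 (55 shared), a minimum of 1 CPM in 3 libraries 56 (54 shared), and a fit of the KO and WT vehicle libraries alone 59 (50 shared), which gives no value for contrasts with R820W. DESeq2 did not call SLC22A3, KLHL29, PDE1C, PRKACB, SESN2 or PHGR1 (adjusted p of 0.0539 to 0.230), and limma-voom did not call MSRB3, SAA1, RSAD2, CNTN1, IKZF2, PLEKHH2 or PHGR1 (0.0548 to 0.0682). With a replicate block for the letter, 103 genes were called, 70 higher and 33 lower, and all 56 were among them. Deviations of KO and WT libraries from their group means correlated at −0.12 for a, 0.19 for b and 0.10 for c, so the letters were not taken to pair them, and KO a correlated best with WT b (0.16) and KO c with WT a (0.22). Over all 10 pairs of the 5 groups, same-letter libraries correlated at −0.20 to 0.22 for a, 0.12 to 0.35 for b and 0.01 to 0.33 for c, and for WT vehicle with R820W mepazine the 3 letters gave 0.22, 0.29 and 0.16. The labels do not say what a letter marks, and whether it marks a batch was not tested beyond this. Leaving out 1 library gave 22 to 51 calls, with 22 without KO a, 33 without WT b and 35 without WT c. No named gene changed direction while called. Over the settings, the median of all genes ran from 0.00 to 0.01. Most list medians were small enough for 1 library to move them by over 1.5 times. Without KO a, those of the NF-kB, ERK, YAP-TEAD, matrix, protease and integrin lists were 0.07, 0.05, 0.04, 0.03, 0.05 and 0.00, against 0.11, 0.09, 0.07, 0.06, 0.10 and 0.06. Without KO c, those of the YAP-TEAD and matrix lists were 0.12 and 0.10 and that of the cytokine receptor list 0.00. Without WT b, those of the protease and fatty acid lists were 0.05 and −0.04, and without WT c that of the antimicrobial list was 0.34. The p53 and cell cycle medians changed sign without KO c and KO b, from −0.01 to 0.01 and from 0.01 to 0.00. Signs also changed for p53 without WT c (0.002) and for integrins without KO a (−0.001). The differentiation median, 0.00 in the main fit, ran from −0.03 without KO c to 0.07 without WT c. The basal median, also 0.00, ran from −0.02 without KO a to 0.03 without KO b. The sign of these 2 medians therefore depended on the setting. The ATF4 median was among those that did not move so far. Genes under about 1 CPM rest on few counts, and their differences are the least precise.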

Other observations

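Outside the called genes, 24 tested symbols had a log2 fold change beyond 2 in either direction. Many were read-through symbols that join neighbouring genes, and their counts came and went between libraries of 1 group. ATP5J2-PTCD1 was at 0 CPM in the WT libraries and in KO a, at 3.68 CPM in KO b and at 4.70 CPM in KO c (9.07 ± 5.85, edgeR, adjusted p = 0.815). Among the R820W libraries with vehicle it was at 0, 0 and 9.30 CPM. HSPE1-MOB4 was at 0.612 CPM in WT b and at 0 CPM in the other WT and KO libraries with vehicle. Both symbols were chosen as examples after their values were seen.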
